A study of Mus musculus with 12 samples.

Results

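The genes described here are 10 genes of the neutrophil granule and cytosol, S100a8, S100a9, Ltf, Camp, Ngp, Lcn2, Mmp8, Mmp9, Cd177 and Chil3. They were chosen by name, with earlier results of these data known, and all 10 were found among the 15651 genes of the deposited expression table. The libraries come from splenocytes of moribund mice with acute myeloid leukemia (AML) that were enriched for the receptor tyrosine kinase c-Kit. D/F mice carry Dnmt3a fl/fl, Flt3 ITD/ITD and Mx1Cre, and T/F mice carry Tet2 fl/fl, Flt3 ITD/ITD and Mx1Cre, so all groups share the Flt3 internal tandem duplication and the Cre transgene, which was left to act without pIpC induction. Cells of 3 mice of each genotype were split between CCS1477, a p300/CBP bromodomain inhibitor, and DMSO for 6 hours in medium with SCF, IL6 and IL3, which gave 12 libraries, 3 in each of 4 groups. D/F cells received 4 μM and T/F cells 2 μM, so genotype and dose cannot be told apart where the responses of the genotypes are set side by side. Normal c-Kit+ cells were not analysed here.

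Neutrophils load their granules in waves as they mature. Primary granules, with myeloperoxidase and serine proteases, form in promyelocytes, secondary (specific) granules with lactoferrin and cathelicidin in myelocytes, and tertiary (gelatinase) granules with Mmp9 later still. C/EBP epsilon is the transcription factor best known for switching on secondary granule genes, and loss of this wave is a known mark of a block in granulocyte maturation. S100a8 and S100a9 together form calprotectin, which is a cytosolic protein and not a granule protein, and their mRNAs are made along the same path.

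The levels are TPM, a gene's share of all transcripts of a library corrected for transcript length, so genes can be compared by level. Tests were made on log2(TPM + 1), a scale that understates the change of genes near 1 TPM. A gene was called where its adjusted p was under 0.05 and its difference above 2-fold, and in a second fit the mouse was a block, since the cells of each mouse were split. The number of reads per library is not part of TPM, and depth is therefore unknown. Libraries of the same group were correlated across genes at 0.978 to 0.991 in T/F, but D/F replicate 2 stood apart from the other D/F mice (0.947 to 0.958, against 0.979 and 0.983 between replicates 1 and 3), and results that it moved are also given without it. Of the targeted genes, Tet2 was at 30.0 to 35.8 TPM in T/F DMSO and 38.3 to 43.4 TPM in D/F DMSO samples, and Dnmt3a did not separate the genotypes (29.3 to 55.7 TPM in D/F and 39.9 to 53.9 TPM in T/F DMSO samples).

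Sequence before the start site is shown for 4 of the genes, because they lie on the same chromosome and differed in their response to CCS1477. Mmp8 and Camp had the largest falls of the 10. Ltf was close to its DMSO level in 5 of 6 mice, and Ngp was at 79.2% to 126% of it over the 6 mice. Camp (chr9:109847379-109849617, minus strand), Ngp (chr9:110419747-110423012, plus strand) and Ltf (chr9:111019271-111042767, plus strand) are neighbours on chromosome 9 of GRCm38, with 570 kb between Camp and Ngp and 596 kb between Ngp and Ltf by GENCODE vM21. Mmp8 is at chr9:7558456-7568485 on the plus strand. The stretches are from RefSeq on GRCm38.p6, 5′ to 3′, at chr9:7558179-7558428 (Mmp8, plus strand), chr9:109849618-109849706 (Camp, minus strand), chr9:111019042-111019270 (Ltf, plus strand) and chr9:110419558-110419746 (Ngp, plus strand). Each ends where the RefSeq or the GENCODE gene begins, whichever comes first, so that Camp has 89 bases, Ngp 189, Ltf 229 and Mmp8 250. Capitals mark matches to TTGCNNAA, a C/EBP core, and to GAGGAA, a PU.1 core, on either strand.
Mmp8: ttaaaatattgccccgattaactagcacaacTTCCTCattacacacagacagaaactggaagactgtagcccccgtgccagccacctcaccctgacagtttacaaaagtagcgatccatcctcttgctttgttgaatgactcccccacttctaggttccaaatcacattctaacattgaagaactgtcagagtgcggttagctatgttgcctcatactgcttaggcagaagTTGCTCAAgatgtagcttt
Camp: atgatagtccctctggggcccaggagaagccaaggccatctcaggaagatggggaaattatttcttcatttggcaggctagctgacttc
Ltf: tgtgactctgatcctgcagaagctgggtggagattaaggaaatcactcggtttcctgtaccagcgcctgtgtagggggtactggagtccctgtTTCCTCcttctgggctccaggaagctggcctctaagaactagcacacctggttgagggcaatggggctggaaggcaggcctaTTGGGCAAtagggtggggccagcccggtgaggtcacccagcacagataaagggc
Ngp: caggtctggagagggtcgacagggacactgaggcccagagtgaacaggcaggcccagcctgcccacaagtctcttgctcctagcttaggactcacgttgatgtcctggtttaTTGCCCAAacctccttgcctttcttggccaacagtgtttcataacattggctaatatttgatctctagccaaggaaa
RefSeq promoters, from 250 bases before to 50 after the start site, were found for 9 of the 10 genes (not for Mmp9). TTGCNNAA was present in 5 of the 9 (Lcn2, Ltf, Mmp8, Ngp and S100a9) and in 10.8% of all 32851 promoters. In Mmp8 the match began at position -19 from the RefSeq start site, in Ltf at -75, and in Ngp at -138 and -11, of which the last lies within the GENCODE gene and is not shown. GAGGAA was present in 5 of the 9 (Cd177, Lcn2, Ltf, Mmp8 and S100a8) and in 28.3% of all promoters. TATAAA on the gene's strand was present in 4 of the 9 (Cd177, Chil3, S100a8 and S100a9) and in 8.32% of all promoters. TTNCGCAA, whose matches are all matches of the first motif on one strand or the other, was present in 0 of the 9 and in 0.798% of all promoters. The Camp window held none of the 4. These are matches of letters only.

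In DMSO the 10 genes together made up 0.286% to 1.13% of a library's TPM, and S100a8 and S100a9 made up 63.7% to 73.7% of the sum of the 10 over all 12 libraries. The order of the levels was alike in the genotypes. S100a8 was first, then S100a9, Ngp, Lcn2 and Chil3 in all 6 mice. Ltf was above Camp in 2 of 3 mice of each genotype, with mean levels of 159 ± 114 and 154 ± 85.8 TPM (SD, n = 3) in D/F, so these neighbours did not differ beyond their spread. Mmp8, the neutrophil collagenase, held a different place, below Cd177 or level with it in the D/F mice and above Ltf in 2 of 3 T/F mice. Mmp9, gelatinase B, was the lowest of the 10 in the T/F mice and in 2 of the 3 D/F mice.

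The mice differed more in these genes than in most others. The SD of log2(TPM + 1) over the 6 DMSO samples was 0.76 (Lcn2) to 1.58 (Mmp8), and the median over 15219 genes was 0.239. At least 95.1% of genes had a smaller SD than each of the 10. With D/F replicate 2 left out the SD was 0.57 (Lcn2) to 1.19 (Mmp9), against a median of 0.167, and at least 93.3% of genes had a smaller one. D/F replicate 2 or T/F replicate 3 was the lowest for every one of them, and D/F replicate 1 the highest for all but Mmp8. S100a8 ranged from 1370 to 4682 TPM and Ltf from 32.6 to 253 TPM, both lowest in D/F replicate 2 and highest in D/F replicate 1. The widest range was that of Mmp8, from 6.45 TPM in D/F replicate 2 to 195 TPM in T/F replicate 2.

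The levels of 9 of the genes moved together between mice. Over the 6 DMSO samples the correlation between any 2 of them other than Mmp8 was 0.828 to 0.996 (36 pairs, median 0.965), and between Mmp8 and another it was 0.188 to 0.641 (9 pairs). The same pairs were at 0.896 to 0.998 and at -0.18 to 0.057 without D/F replicate 2. These are descriptions over 6 or 5 libraries, 1 of each mouse. The 2 mice with the least of these transcripts had the highest summed level of 10 stem and progenitor markers in their genotype (Kit, Cd34, Meis1 and others), at 1428 TPM in D/F replicate 2 against 628 and 678 TPM, and at 764 TPM in T/F replicate 3 against 492 and 562 TPM. They also had the highest summed level of 8 dendritic cell markers, at 1858 TPM in D/F replicate 2 against 395 and 1203 TPM, and at 2842 TPM in T/F replicate 3 against 983 and 1221 TPM. Most of this sum was Cd74 and H2-Ab1, at 1341 and 403 TPM in D/F replicate 2 and at 2058 and 674 TPM in T/F replicate 3. The part of stem, progenitor or dendritic cells in the result was not tested. In bulk samples, fewer cells of a type and less RNA per cell cannot be told apart.

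**Figure D1:**
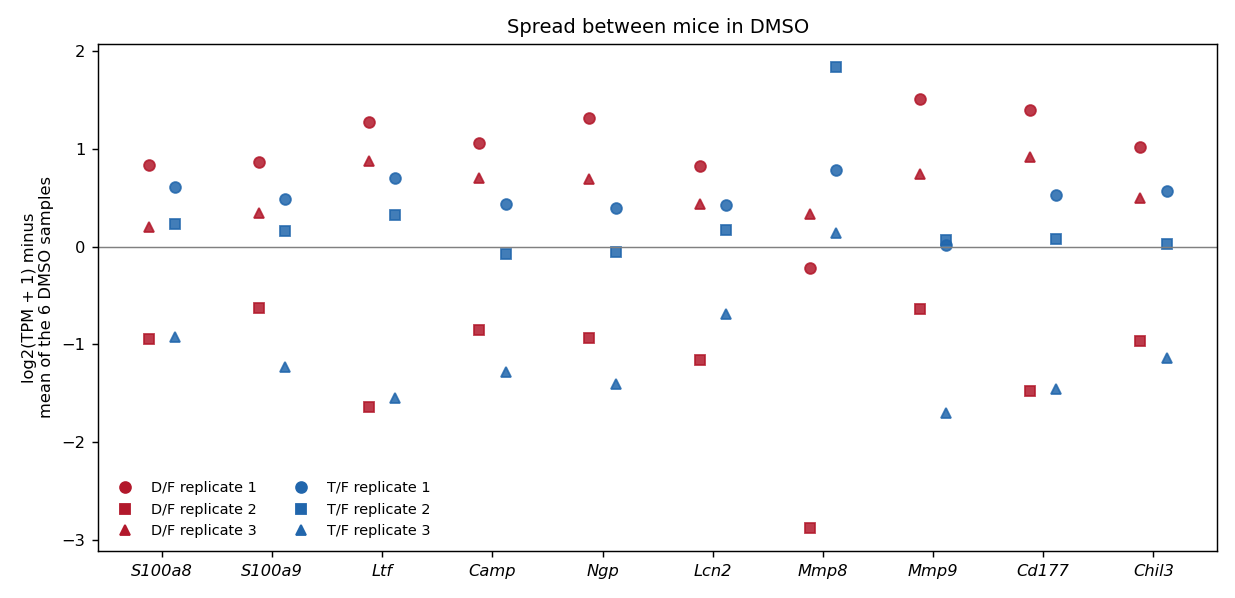
Level of each gene in the 6 DMSO samples, as log2(TPM + 1) minus the gene's mean over those samples, with D/F mice in red and T/F mice in blue. For 9 genes the squares of D/F replicate 2 and the triangles of T/F replicate 3 lie below the rest, and Mmp8 is the exception, with T/F replicate 2 at the top.

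The genotypes were not separated by these genes in DMSO. No gene of the 10 was called between T/F and D/F by limma, where 0.0328% of all 15265 genes were called. At an unadjusted p under 0.05 were 0 of the 10 and 939 of all genes. Mmp8 had the largest difference, with 46.1, 6.45 and 67.8 TPM in D/F and 93.4, 195 and 59.3 TPM in T/F replicates 1, 2 and 3. The groups overlapped, and the difference of 1.84 ± 0.89 (log2, T/F minus D/F, ± SE; adjusted p = 0.86) did not pass. The other 9 genes had lower fitted levels in T/F, with differences of -0.06 (S100a8 and Lcn2) to -1.08 (Mmp9) on the log2 scale, and none passed. The interval for Mmp9 ran from -2.76 to 0.60 and that for S100a8 from -1.43 to 1.32, so the spread between mice leaves room for a 2-fold difference. Leaving out D/F replicate 2, the difference of Mmp8 was 0.87 and those of the other 9 ran from -0.54 (S100a8) to -1.67 (Mmp9), and again none passed (adjusted p = 0.417 to 0.719). The ratio of Mmp8 to Mmp9 TPM in DMSO was 0.782 to 2.94 for D/F mice and 6.91 to 17.5 for T/F mice, without overlap. This ratio was looked at after the levels were seen and was not tested.

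Under CCS1477 the 10 genes split. Mmp8 and Camp fell in both genotypes, to between 5.06% and 57.8% of their level in DMSO in each mouse, and Chil3, Mmp9 and Lcn2 fell less. S100a8, S100a9, Ltf and Ngp were at 87.2% (S100a8) to 126% (Ngp) of their DMSO level in the 5 mice other than D/F replicate 2. With the mouse as a block, 2 of the 10 were called lower above 2-fold over both genotypes (Camp and Mmp8), where 5.95% of all genes were. Without a fold limit, 5 of the 10 were lower at an adjusted p under 0.05 (Camp, Mmp8, Chil3, Mmp9 and Lcn2), where 26.1% of all genes were, and none was higher. Without the mouse in the fit, 0 of the 10 were called over both genotypes, where 5.75% of all genes were. At an unadjusted p under 0.05 were 2 of the 10 (Camp and Mmp8, limma adjusted p = 0.0664 and 0.0641) and 8107 of all 15455 genes. The median difference of the 10 was -0.32 on the log2 scale, and that of all genes tested was 0.07. Without D/F replicate 2, Camp and Mmp8 were called both with and without the block, and 5.49% and 5.43% of all genes were called lower. With the block the same 5 genes were then lower and Ngp was higher with any fold. For this last rule the share of all genes without this mouse is not reported here.

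**Figure D2:**
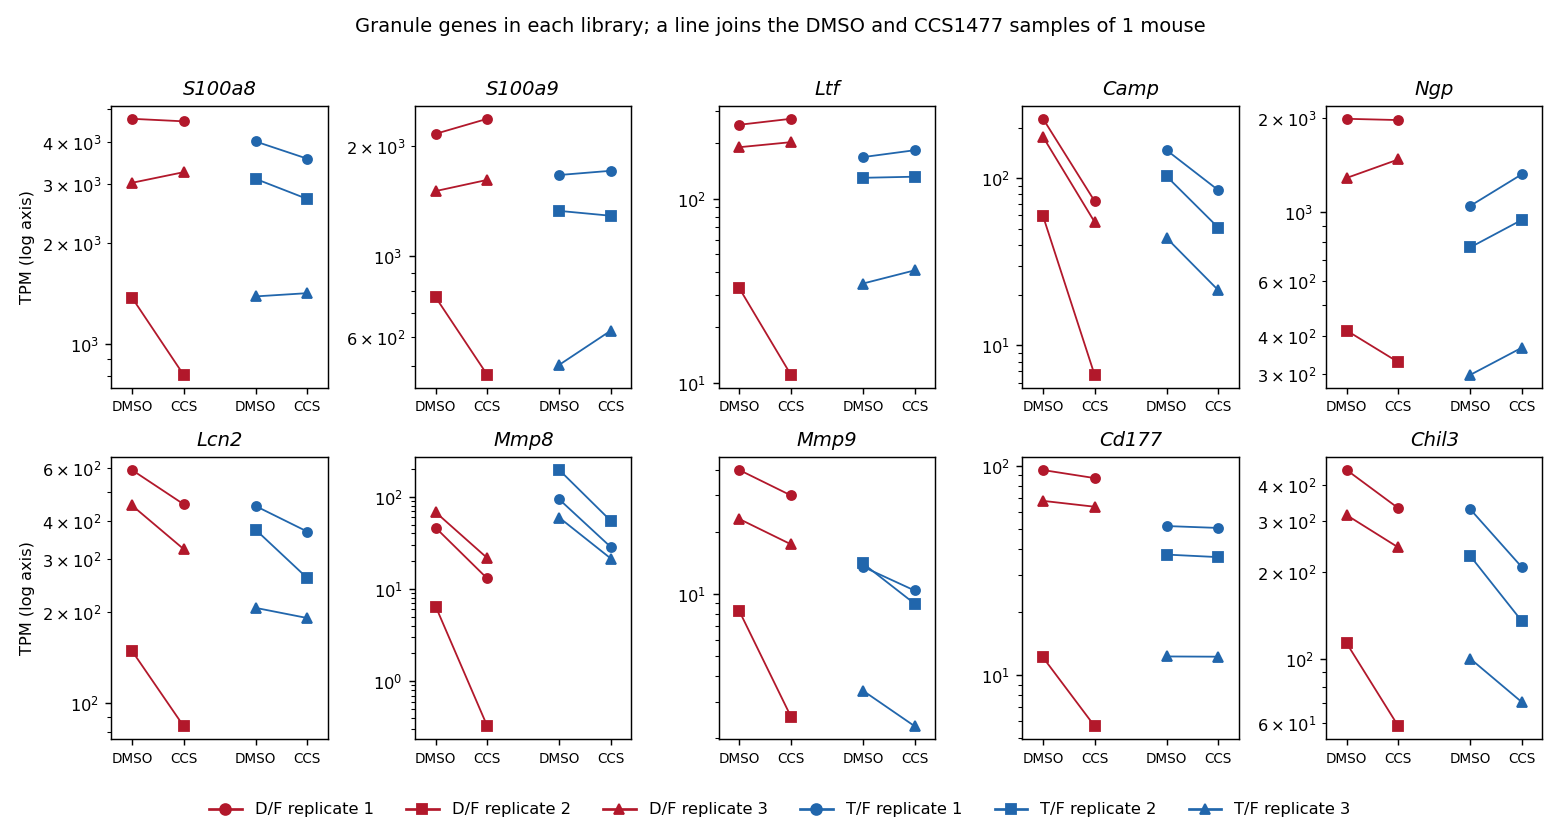
TPM of the 10 genes in the 12 libraries, on log axes that differ between panels, where a line joins the DMSO and the CCS1477 sample of 1 mouse (D/F red, T/F blue). The lines of Camp and Mmp8 drop in all 6 mice, those of S100a8, S100a9, Ltf and Ngp are nearly level except in D/F replicate 2 (squares, red), and the mice stay in about the same order.

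Within the mouse, 6 of the 10 genes were lower with CCS1477 in all 6 mice (Camp, Mmp8, Chil3, Mmp9, Lcn2 and Cd177), where 24.4% of all genes were, and the same number were lower in all 5 mice other than D/F replicate 2, where 25.9% of all genes were. Exact sign-flip tests over 6 mice gave two-sided p = 0.03125 for each of these 6 genes, not adjusted over the 10. This is the smallest p that 6 mice allow. Any gene lower in all 6 mice gets it, so it adds nothing to the count. The 4 others gave exact p-values of 0.219 (S100a8) to 1 (Ltf).

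Mmp8 degrades fibrillar collagen and is stored in specific granules. In D/F it went from 46.1, 6.45 and 67.8 TPM in DMSO to 13, 0.326 and 21.6 TPM with CCS1477 in replicates 1, 2 and 3. In T/F it went from 93.4, 195 and 59.3 TPM to 28.5, 54.8 and 21.4 TPM. The T/F groups did not overlap, while in D/F the range between mice covered the difference. The remaining share was 28.2%, 5.06% and 31.9% in the D/F mice and 30.5%, 28.1% and 36.1% in the T/F mice. The fitted difference was -1.95 ± 0.21 for D/F and -1.64 ± 0.09 for T/F (log2, ± SE, limma with the mouse as a block; adjusted p = 0.00757 and 0.00205). Without the block T/F kept the call (adjusted p = 0.048) and D/F did not (0.352). That T/F call without the block was lost at a pseudocount of 0.1, without T/F replicate 1 and without T/F replicate 3, and with the block it held without any 1 of the T/F mice. An exact permutation test of 3 T/F samples against 3 gave p = 0.1, the smallest it allows. At 0.326 TPM, D/F replicate 2 was near 0, where the log2(TPM + 1) scale gives -2.49.

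Camp encodes cathelicidin, the precursor of an antimicrobial peptide. In D/F it went from 226, 59.2 and 176 TPM in DMSO to 72.9, 6.67 and 54.7 TPM with CCS1477. In T/F cells it went from 147, 102 and 43.8 TPM to 84.8, 50.7 and 21.4 TPM. No mouse kept more than 57.8% of its level, and the groups overlapped in both genotypes because the mice started so far apart. The remaining share was 11.3% to 32.2% for D/F and 48.9% to 57.8% for T/F, without overlap between the genotypes, which had different doses. The fitted difference was -2.09 ± 0.32 for D/F and -0.93 ± 0.07 for T/F (log2, ± SE, limma with the mouse as a block; adjusted p = 0.0136 and 0.00271), and the second is below 2-fold and so not a call. The difference between the responses was 1.16 ± 0.37 (T/F minus D/F) with an unadjusted p of 0.0207 and a limma adjusted p of 0.269. Without D/F replicate 2, which kept 11.3% of its Camp level against 32.2% and 31.0% in the other D/F mice, the D/F difference was -1.65 and the difference between the responses 0.72 ± 0.10 (adjusted p = 0.168). Over all 15583 genes, 0% were called for a difference of responses with the block and 0% without it, against 2293 and 659 genes at an unadjusted p under 0.05. Of the 10 genes, Camp alone was among those with the block and none without it.

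Camp parted from its neighbours. Ngp, a granule protein of the same cathelin-like family, was at 1991, 415 and 1285 TPM in D/F DMSO and at 1972, 329 and 1473 TPM with CCS1477. In the T/F mice it was at 1045, 769 and 299 TPM in DMSO and at 1320, 942 and 366 TPM with CCS1477, higher in each of the 3 mice. The T/F difference of 0.31 ± 0.05 (log2, ± SE, limma with the mouse as a block; adjusted p = 0.0108) is below 2-fold, and 31.2% of all genes were higher in T/F by the same rule. In D/F the difference was -0.05 ± 0.13 (adjusted p = 0.783), and it was 0.09 without replicate 2. The ratio of Camp to Ngp was 0.114 to 0.147 in the 6 DMSO samples and 0.0203 to 0.0643 in the 6 CCS1477 samples, without overlap in either genotype. The fall of Camp exceeded that of Ngp by 1.64 ± 0.56 (log2, SD over 6 mice).

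Ltf, lactoferrin, an iron-binding protein of specific granules, was at 253, 32.6 and 191 TPM in D/F DMSO and at 272, 11.1 and 203 TPM with CCS1477. In T/F it was at 169, 130 and 34.7 TPM in DMSO and at 184, 132 and 40.9 TPM with CCS1477. It was slightly higher in 5 mice and at 33.9% of its level in D/F replicate 2. The fitted difference was -0.43 ± 0.37 for D/F and 0.12 ± 0.06 for T/F (log2, ± SE, limma with the mouse as a block; adjusted p = 0.402 and 0.175), and in D/F it was 0.10 without replicate 2. Camp fell more than Ltf in 6 of 6 mice, by 1.36 ± 0.36 (log2, SD).

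The calprotectin genes lie 22.6 kb apart on chromosome 3 (S100a8 at chr3:90668978-90670035, plus strand; S100a9 at chr3:90692632-90695721, minus strand). S100a8 was at 4682, 1370 and 3017 TPM in D/F DMSO and at 4601, 807 and 3245 TPM with CCS1477. In T/F cells it was at 4006, 3098 and 1383 TPM in DMSO and at 3560, 2700 and 1414 TPM with CCS1477. Neither group stood apart, and the fitted difference was -0.23 ± 0.20 for D/F and -0.11 ± 0.07 for T/F (log2, ± SE, limma with the mouse as a block; adjusted p = 0.414 and 0.245). S100a9 was at 2161, 771 and 1506 TPM in D/F DMSO and at 2375, 473 and 1616 TPM with CCS1477. In the T/F mice it was at 1667, 1329 and 504 TPM in DMSO and at 1712, 1289 and 625 TPM with CCS1477. It was higher in 4 of 6 mice, with differences of -0.16 ± 0.21 for D/F and 0.10 ± 0.09 for T/F (adjusted p = 0.58 and 0.392 by the same fit). In D/F both differences turned positive without replicate 2, at 0.04 for S100a8 and 0.12 for S100a9. The intervals with the block, -0.31 to 0.08 for S100a8 and -0.15 to 0.35 for S100a9 in T/F, lie within a 2-fold change, as do those in D/F, -0.78 to 0.32 and -0.71 to 0.40. S100a8 and S100a9 had a ratio of 1.78 to 2.17 in D/F DMSO and of 2.33 to 2.74 in T/F DMSO samples.

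Lcn2 is lipocalin 2, which binds bacterial siderophores. It went from 591, 149 and 451 TPM in D/F DMSO to 456, 84.0 and 324 TPM with CCS1477. In T/F it went from 449, 375 and 207 TPM to 370, 260 and 191 TPM. Each mouse kept 56.4% to 92.6% of its level, and the groups overlapped. The fitted difference was -0.56 ± 0.12 for D/F and -0.31 ± 0.10 for T/F (log2, ± SE, limma with the mouse as a block; adjusted p = 0.031 and 0.0655), so that only D/F passed without a fold limit, and the responses were not shown to differ (adjusted p = 0.532). Without the mouse in the fit neither passed (adjusted p = 0.673 and 0.531).

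Chil3 encodes Ym1, a chitinase-like protein without enzyme activity. It went from 450, 113 and 314 TPM in D/F DMSO to 332, 58.4 and 243 TPM with CCS1477. In T/F cells it went from 329, 227 and 99.98 TPM to 208, 135 and 70.7 TPM. The mice kept 51.7% to 77.3% of their level, with about the same share in each genotype (67.6 ± 13.9% for D/F and 64.5 ± 5.74% for T/F, SD, n = 3). The fitted difference was -0.58 ± 0.15 for D/F and -0.63 ± 0.07 for T/F (log2, ± SE, limma with the mouse as a block; adjusted p = 0.0427 and 0.00516).

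Mmp9, the gelatinase that gives tertiary granules their name, went from 39.8, 8.24 and 23.0 TPM in D/F DMSO to 30.0, 2.55 and 17.4 TPM with CCS1477. In the T/F mice it went from 13.5, 14 and 3.4 TPM to 10.4, 8.97 and 2.29 TPM. It fell in T/F, by 0.45 ± 0.07 on the log2 scale (limma with the mouse as a block; adjusted p = 0.0104), and the D/F difference of -0.72 ± 0.24 did not pass (adjusted p = 0.079). This D/F difference was -0.39 ± 0.09 without replicate 2 (adjusted p = 0.058). Mmp8 fell more than Mmp9 in 6 of 6 mice, by 1.21 ± 0.13 (log2, SD). Both metalloproteinases were thus lower in each mouse, by unequal amounts.

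Cd177, a surface glycoprotein that is also held in the specific granule membrane, was at 95.3, 12.1 and 67.9 TPM in D/F DMSO and at 87.2, 5.70 and 63.6 TPM with CCS1477. In T/F it was at 51.5, 37.6 and 12.3 TPM in DMSO and at 50.4, 36.6 and 12.2 TPM with CCS1477. It was lower in 6 of 6 mice, with 91.5% to 99.7% of its level left in 5 of them and 47.0% in D/F replicate 2. The fitted difference was -0.40 ± 0.21 for D/F and -0.02 ± 0.05 for T/F (log2, ± SE, limma with the mouse as a block; adjusted p = 0.207 and 0.689). The mean over mice was -0.21, and -0.06 without D/F replicate 2.

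**Figure D3:**
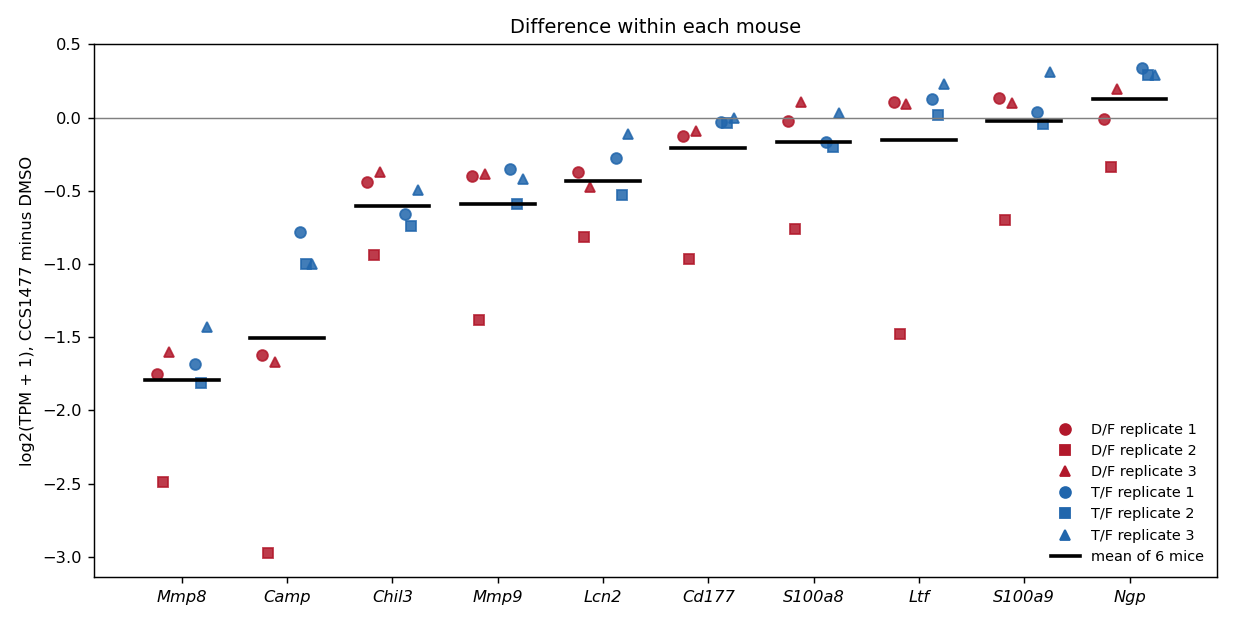
Difference between the CCS1477 and the DMSO sample of each mouse (log2(TPM + 1)), with genes in the order of their mean over 6 mice (black bar), D/F red and T/F blue. Camp has all 6 mice between -2.97 and -0.78 and Mmp8 between -2.49 and -1.43, D/F replicate 2 (red squares) is the lowest point of each gene, and Ngp has 4 mice above 0.

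By genotype, the fit without the mouse called 0 of the 10 genes in D/F, where 4.61% of all genes were lower and called. There, 0 of the 10 and 4712 of all 15501 genes had an unadjusted p under 0.05. The same fit called 1 of the 10 in T/F (Mmp8), where 4.7% of all genes were. With the mouse as a block, 2 of the 10 were called in D/F (Camp and Mmp8), where 6.97% of all genes were, and 1 in T/F (Mmp8), where 5.18% were. Without a fold limit, 4 of the 10 were lower in D/F with the block (Camp, Mmp8, Lcn2 and Chil3), where 18% of all genes were. The same rule found 4 lower in T/F (Camp, Mmp8, Mmp9 and Chil3), where 22.9% of all genes were, and Ngp higher. The spread between mice, which the block removes, was wide: the SE of Camp in D/F was 0.94 without and 0.32 with it. No gene of all those tested was called in D/F by limma without replicate 3 (with or without the block) or without replicate 1 (without the block), where 2 mice are left, so the D/F calls of Camp and Mmp8 rest on all 3 mice or on leaving out replicate 1 or 2. Without D/F replicate 2, the D/F samples called Camp and Mmp8 with the block and without it. Of all 15191 genes tested there, 5.53% were called lower without the block, and 1710 were called in either direction with it. Lcn2 and Chil3 no longer passed. The median difference of the 10 genes was -0.49 for D/F and -0.21 for T/F, against 0.06 and 0.07 over all genes tested, and in D/F it was -0.25 without replicate 2.

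**Figure D4:**
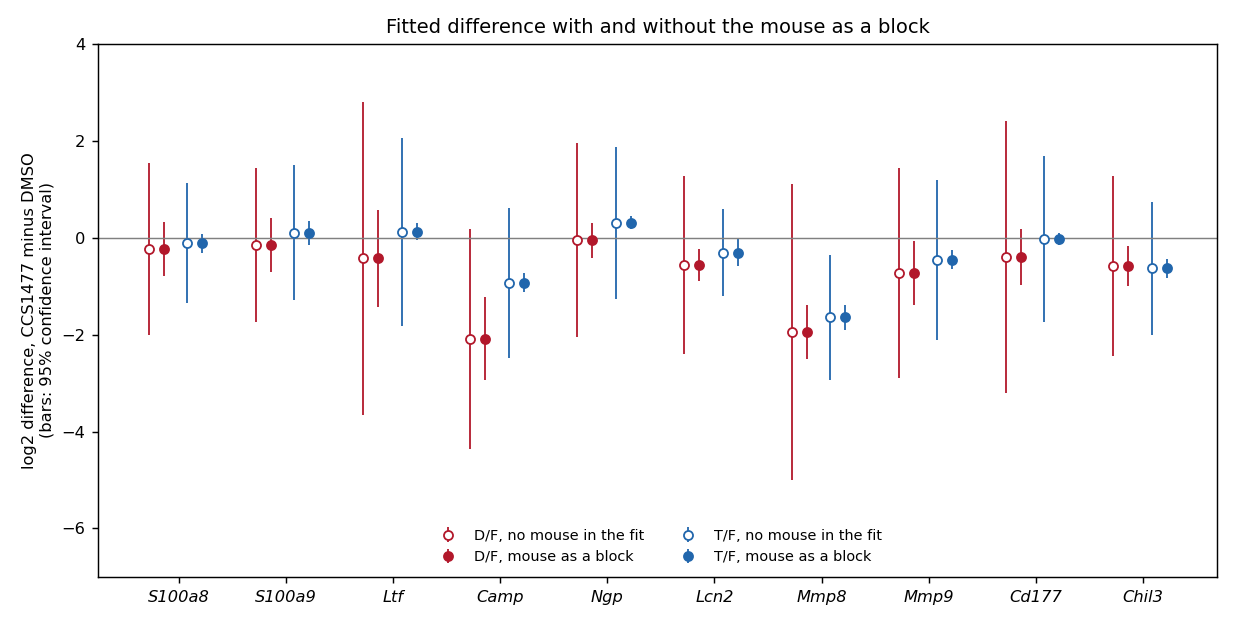
Fitted log2 difference between CCS1477 and DMSO with its 95% confidence interval, for D/F (red) and T/F (blue), without the mouse in the fit (open) and with the mouse as a block (filled). The estimates are the same in both fits and the intervals shrink with the block. With it the intervals of Camp, Mmp8, Chil3, Mmp9 and Lcn2 lie below 0 in both genotypes, without adjustment over genes.

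The responses of the genes were compared in pairs within the mouse, a comparison added after the data were seen. Of 45 pairs, 28 had the same order in 6 of 6 mice. Each of these had an exact sign-flip p of 0.03125, the smallest that 6 mice allow, and an adjusted p over the 45 pairs of 0.0502, so no pair passed. Mmp8 fell more than each of the others except Camp in all 6 mice, and Camp fell more than each of the others except Mmp8. Between the 2 the difference was 0.29 ± 0.53 (log2, SD, 4 of 6 mice, exact sign-flip p = 0.25). On this scale Mmp8 fell more than Camp in the 3 T/F mice and in D/F replicate 1. The scale turned the order in D/F replicate 2, where Mmp8 was at 0.326 TPM with CCS1477. In TPM that mouse kept 5.06% of Mmp8 and 11.3% of Camp.

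Many other genes of the granule programme fell with CCS1477, and whether they did so more often than the 10 was not tested. Of 29 other specific and gelatinase granule genes 26 were tested over both genotypes, with the mouse as a block, and 14 were called lower and 0 higher, with a median difference of -1.11 on the log2 scale. The counts of this and the following lists stand beside the 5.95% of all genes that were called lower by this rule, and the 26.1% that were lower with any fold. Clec5a, a myeloid lectin receptor, was at 28.9 to 91.8 TPM in D/F DMSO and 4.54 to 16.5 TPM with CCS1477, and at 68.8 to 120 TPM and 20.4 to 27.1 TPM in T/F, and fell by 2.20 ± 0.12 (log2, SE; limma adjusted p = 1.76e-05). Itgam, the integrin CD11b, fell by 1.78 ± 0.10 (adjusted p = 1.85e-05), and Hp, haptoglobin, a cargo of specific granules, fell by 1.74 ± 0.21 (adjusted p = 0.000312). Cybb, the gp91 subunit of the granule membrane oxidase, fell by 1.23 ± 0.18 (adjusted p = 0.000804). Olfm4, which marks a subset of specific granules, was among those that did not pass, at 0.23 ± 0.09 (adjusted p = 0.0597), as were the stefins Stfa1, Stfa2, Stfa2l1 and Stfa3, whose reads can be shared between near-identical copies.

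Primary granule genes fell as a rule. Of 13 listed, 11 were tested and 9 were called lower, and all 11 were lower without a fold limit, with a median of -1.36. Epx and Prg2, among the 11, are also counted with the eosinophil, basophil and mast cell markers below. Mpo, myeloperoxidase, went from 1163 to 3673 TPM over D/F DMSO samples to 277 to 1582 TPM with CCS1477, and from 1244 to 2150 TPM to 463 to 1048 TPM in T/F, a difference of -1.36 ± 0.13 (log2, SE; limma with the mouse as a block, adjusted p = 0.000131). Elane, neutrophil elastase, fell by 1.07 ± 0.06 (adjusted p = 1.53e-05) and Ms4a3 by 2.65 ± 0.40 (adjusted p = 0.00105). Without D/F replicate 2 these counts were 13 of 26 for the other specific and gelatinase genes and 10 of 11 for the primary ones.

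Among 17 regulators of granule genes, 16 were tested, 6 were called lower (Cebpa, Cebpe, Gfi1, Runx1, Irf8 and the G-CSF receptor Csf3r) and 1 was called higher (Klf5). Cebpe, which encodes C/EBP epsilon, was at 96.1, 31.8 and 57.4 TPM in D/F DMSO and at 30.7, 5.98 and 14.6 TPM with CCS1477. In T/F cells it was at 47.3, 42.2 and 27.2 TPM and then at 24.9, 20.9 and 10.1 TPM. It fell by 1.49 ± 0.18 (log2, SE; limma with the mouse as a block, adjusted p = 0.000373). Gfi1, a repressor needed for granulocyte maturation, fell by 3.01 ± 0.19, the most of this list (adjusted p = 2.71e-05), with 38.6 to 109 TPM in D/F DMSO and 5.36 to 7.95 TPM with CCS1477. Klf5 rose by 1.19 ± 0.11 (adjusted p = 0.000116). Spi1, which encodes PU.1, was lower by less than 2-fold over both genotypes (-0.90 ± 0.20, adjusted p = 0.00569). It was called in D/F, where it went from 129 to 146 TPM to 39.7 to 66.8 TPM (-1.38 ± 0.14, adjusted p = 0.00747), and in T/F, where it went from 156 to 172 TPM to 111 to 135 TPM, it fell by less than 2-fold (-0.42 ± 0.06, adjusted p = 0.00771). The responses were not shown to differ (0.96 ± 0.16, T/F minus D/F, adjusted p = 0.17). Without D/F replicate 2, 6 of the 16 were again called lower.

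Of 15 partners, receptors and inhibitors of the proteins, 14 were tested, 6 were called lower and 1 higher. The higher one was Slc22a17, the receptor for lipocalin 2, at 0.129 to 2.56 TPM in D/F DMSO and 2.61 to 10.2 TPM with CCS1477, and at 0.240 to 0.630 TPM and then 1.61 to 2.65 TPM in T/F, a rise of 1.38 ± 0.12 (log2, SE; limma with the mouse as a block, adjusted p = 9.18e-05). The lower ones were Lrp1, a receptor that takes up lactoferrin and metalloproteinases, Pecam1, a ligand of CD177, and Cd36, Cd33, Fpr2 and Itgam. Lrp1 fell by 2.06 ± 0.14 (adjusted p = 3.47e-05) and Pecam1 by 2.06 ± 0.13 (adjusted p = 2.5e-05). Fpr2 and Itgam are also in the list of other specific and gelatinase granule genes. Of the 14, 5 were called lower without D/F replicate 2.

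**Figure D5:**
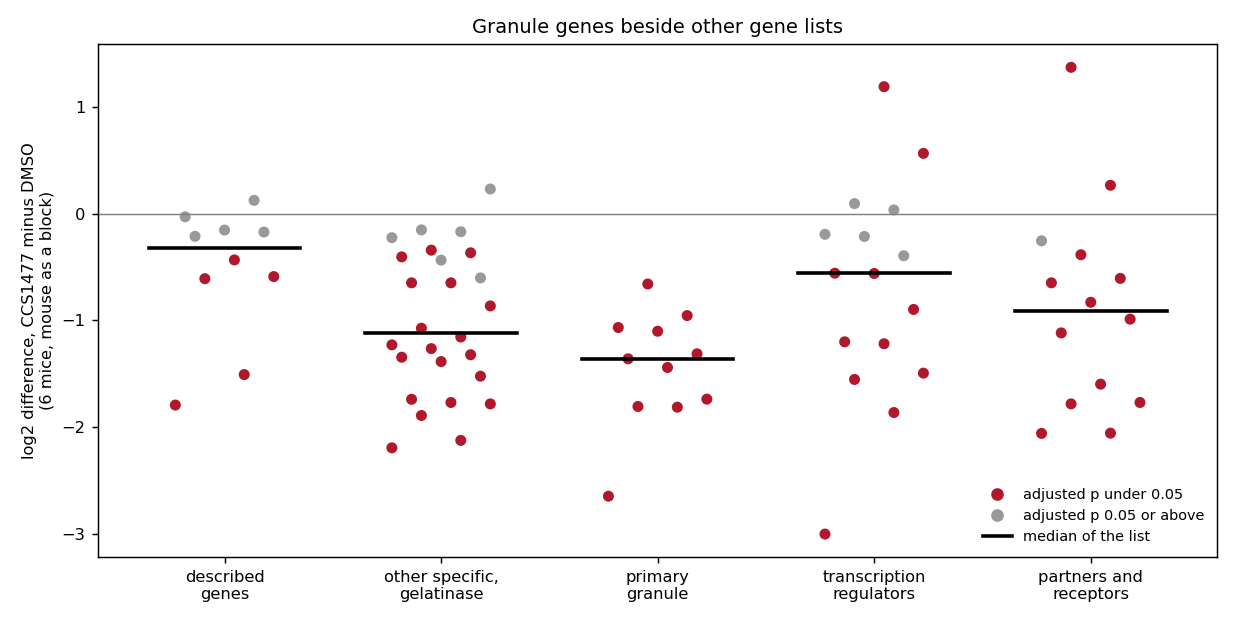
Fitted log2 difference between CCS1477 and DMSO over 6 mice with the mouse as a block, 1 point per gene tested, for the 10 genes described and 4 other lists, with the median of each list as a black bar. Points in red have an adjusted p under 0.05, and the medians run from -0.32 for the 10 genes to -1.36 for the primary granule genes.

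Markers of mature neutrophils fell as well, though Mmp25, Retnlg, Fpr1 and Csf3r among them are also counted in the lists above. Of 14 such markers 13 were listed (not Cxcl2; Ly6g and Fpr1 were at 0 in 1 library each), and 11 were called lower with the mouse as a block, with a median of -1.49. Of the 13, 9 were called lower without D/F replicate 2. Their summed level was 450 to 591 TPM in D/F DMSO and 81.1 to 174 TPM with CCS1477, and 454 to 559 TPM and then 180 to 212 TPM in T/F. The summed level of the 10 genes was 2936 to 10536 TPM in D/F DMSO and 1777 to 10213 TPM with CCS1477, and 2646 to 7971 TPM and then 2765 to 7528 TPM in T/F, with overlap in both. Monocyte and macrophage markers (13 of 14 listed, C1qa not) summed to 609 to 1487 TPM in D/F DMSO, 191 to 618 TPM in D/F with CCS1477, 768 to 974 TPM in T/F DMSO and 277 to 373 TPM in T/F with CCS1477. Stem and progenitor markers (10 of 10 listed) summed to 628 to 1428 TPM, 269 to 428 TPM, 492 to 764 TPM and 249 to 431 TPM in the same order. Of these 10, 8 had a lower fitted level with CCS1477 in each genotype, and Meis1 and Hoxa9 had a higher one. Dendritic cell markers (8 of 8) summed to 395 to 1858 TPM, 336 to 1028 TPM, 983 to 2842 TPM and 712 to 2152 TPM, lower with CCS1477 in each mouse and with overlap in both genotypes. Eosinophil, basophil and mast cell markers (8 of 10) were lower without overlap, at 138 to 212 TPM in D/F DMSO against 31.6 to 75.1 TPM with CCS1477, and at 83.0 to 99.5 TPM against 40.7 to 44.4 TPM in T/F. So were T and NK cell markers (5 of 10), at 129 to 177 TPM against 29.0 to 40.7 TPM for D/F mice and at 81.3 to 117 TPM against 30.1 to 38.9 TPM for T/F mice. Most of this sum in DMSO was Nkg7, a gene of cytotoxic granules, at 65.5 to 159 TPM in DMSO and 5.49 to 26.9 TPM with CCS1477. The sum of B cell markers (5 of 8) overlapped in D/F (36.5 to 61.1 TPM in DMSO and 25.7 to 59.0 TPM with CCS1477). In T/F this sum was higher without overlap (78.0 to 81.3 TPM and then 116 to 154 TPM). There Ighm, the mu heavy chain, went from 33.1 to 41.7 TPM to 93.1 to 118 TPM. The 4 other B cell markers had lower fitted levels in T/F, and the median of the 5 was -0.41 on the log2 scale. Megakaryocyte markers (6 of 7) were at 47.8 to 242 TPM against 32.5 to 85.7 TPM for D/F mice, with overlap, and at 65.1 to 70.9 TPM against 46.9 to 48.3 TPM for T/F mice, without it. Over all 12 libraries, erythroid markers (9 of 10) summed to 10.9 to 38.0 TPM and stromal and endothelial markers (2 of 7) to 5.08 to 16.9 TPM. The part of a changed cell make-up in these results was not tested.

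The genes whose pattern was most like that of the 10 over the 12 libraries, among 11594 genes averaging 5 TPM or more, were Acaa2 (r = 0.951), Nin (0.941), Sgpp1 (0.931), Rflnb (0.931), Dmkn (0.929), Msrb1 (0.927), Plod3 (0.922) and Tssc4 (0.922). Here r is Pearson's correlation with the mean z-score of the 10 genes, over libraries of which pairs share a mouse, and is given as a description. Acaa2, a mitochondrial thiolase, was at 29.8 to 46.5 TPM, a narrower range than any of the 10 genes. Dmkn, dermokine, had the widest range of the 8, from 1.11 to 114 TPM.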

How the data were processed

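RNA was sequenced from c-Kit-enriched leukemic splenocytes of 3 D/F and 3 T/F mice, treated with CCS1477 or DMSO. The authors deposited TPM per gene, labelled as kallisto output on mm10, and the methods name AltAnalyze; kallisto's version and annotation are not given in the sources used here. The labels name both ribosome depletion and an mRNA kit. Genes that never exceeded 2 TPM had been left out, and libraries sum to 914204 to 931697 TPM. Of 15651 identifiers, 15252 have a symbol (GENCODE vM21). Genes averaging 1 TPM or more in a group compared were tested on log2(TPM + 1) with limma 3.58.1 (R 4.3.3), eBayes without a trend, two-sided, with Benjamini-Hochberg adjustment over all genes tested. The fits were run on simulated data with planted changes, to check the sign and size of the recovered differences. No limit was set on false calls there. CCS1477 and DMSO were compared in each genotype and over both (genotype as a covariate), the responses in a fit of 4 groups, and T/F with D/F in DMSO. The fit without the mouse is the main one.

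Same-numbered samples come from the same mouse by the labels. A column head in the paper's supplementary data gives another mouse number for D/F replicate 3, and the labels were followed. Their deviations from the group means were correlated at 0.539, 0.669 and 0.541 for D/F mice and at 0.383, 0.354 and 0.496 for T/F mice, and at most at 0.141 between different mice. The members and lists were chosen with earlier results of these data known. All 10 genes are named whatever their values; of other lists, the counts and some called genes are given. Alternatives were a pseudocount of 0.1, no filter, a filter at 5 TPM, rescaling to the median gene, eBayes with a trend, the mouse as a block, any fold, the CCS1477 samples for the genotypes, and leaving out each mouse; the block with a mouse left out, counts, spread and correlations without D/F replicate 2 and pairs of genes were added after seeing the data.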

Additional observations from a re-analysis of the deposited data

Results flagged for a closer look

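Within-mouse differences (log2, CCS1477 minus DMSO) of 6 genes were flagged because 1 of the 6 mice lay far from the other 5, and in each case it was D/F replicate 2. Its values were -0.76 for S100a8, -0.70 for S100a9, -1.48 for Ltf, -2.49 for Mmp8, -1.38 for Mmp9 and -0.97 for Cd177. Chance flags about 1 in 20 such groups, and the 10 genes are not independent of each other. Without this mouse the mean difference was -0.05 for S100a8, 0.11 for S100a9, 0.11 for Ltf, -1.65 for Mmp8, -0.43 for Mmp9 and -0.06 for Cd177. The same mouse stood apart across all genes, and its CCS1477 library had the lowest TPM sum of the 12, 914204. The cause was not tested.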

How the results depend on the processing

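Precision is limited by 3 mice a group, and the depth is unknown. With the replicate block (mouse), 1737 genes were called in D/F in place of 1128, and 2 of the 10 granule genes in D/F and 2 over both genotypes in place of 0. With any fold, 1805 genes were called in D/F, 6620 in T/F in place of 1118, and 7066 over both in place of 1371. At a pseudocount of 0.1 the T/F call of Mmp8 was lost (0 granule genes called), and at a filter of 5 TPM 9 genes in place of 5 were called between the genotypes. In CCS1477 samples the genotype difference turned to 0.058 for S100a8, 0.20 for Ltf, 0.55 for Camp and 0.19 for Lcn2. Rescaled to the median gene, S100a8 had a mean within-mouse difference of -0.25 in all 6 mice (exact p = 0.03125); rescaling moved the median gene by under 0.1.

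Leaving out 1 mouse, with or without the block, gave 0 to 1526 genes (0 to 1710 with the block) and 0 to 2 granule genes called in D/F, 0 to 2 granule genes in T/F and 0 to 2 over both, and 4 to 9 genes between the genotypes. Mmp8 lost its T/F call without T/F replicate 1 and without T/F replicate 3, unblocked. Differences that changed sign ran, in D/F, from -0.39 to 0.040 (S100a8), -0.30 to 0.12 (S100a9), -0.69 to 0.10 (Ltf) and -0.17 to 0.092 (Ngp); in T/F from -0.0029 to 0.17 (S100a9); and over both, as within mice, from -0.094 to 0.11 (S100a9) and -0.23 to 0.11 (Ltf). The difference of responses ran from -0.23 to 0.055 (Chil3; above 0 also at 0.021 and 0.0043), -0.15 to 0.28 (S100a8), -0.017 to 0.40 (S100a9) and -0.063 to 0.43 (Mmp9), and the genotype difference from -0.54 to 0.39 (S100a8), -1.25 to 0.34 (Ltf), -0.66 to 0.33 (Lcn2), -0.94 to 0.12 (Chil3), -0.80 to 0.13 (S100a9) and -1.44 to 0.022 (Cd177). Within mice, -1.65 to -1.22 (Camp), -0.50 to -0.35 (Lcn2), -1.87 to -1.65 (Mmp8), -0.64 to -0.43 (Mmp9), -0.25 to -0.058 (Cd177) and -0.66 to -0.54 (Chil3) kept their direction, and 5 mice cannot give an exact p under 0.0625. The cause was not tested.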
